A study of Mus musculus with 9 samples.

Results

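Early response genes are transcribed within minutes of an outside signal, without new protein synthesis, and their transcripts are short-lived. Growth factor, cytokine and stress signals reach them through MAP kinases and through transcription factors such as SRF with its ELK partners and CREB, which are already present in the resting cell. Many of their products are themselves transcription factors. EGR1 and EGR2 are zinc finger factors that bind GC-rich sites and take part in monocytic differentiation, KLF2, KLF4 and KLF6 are Krüppel-like factors that bind GC or CACCC boxes, NR4A1 is an orphan nuclear receptor, BTG2 is an antiproliferative cofactor of mRNA deadenylation, and IER2, IER3 and IER5 are smaller nuclear or signalling proteins of the same response.

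These 10 genes (*Egr1*, *Egr2*, *Klf2*, *Klf4*, *Klf6*, *Ier2*, *Ier3*, *Ier5*, *Nr4a1* and *Btg2*) were chosen by name out of the 55401 genes in the deposited tables and were described in all 9 RNA-Seq libraries. The cells were H9M cells, that is lineage-negative bone marrow of C57BL/6-Ly5.1 (CD45.1) mice transduced with a gammaretroviral vector for *Meis1* and *Hoxa9* and marked with lentiviral color-code (FGB-D) vectors. They had been transplanted with helper bone marrow into lethally irradiated C57Bl6/J recipients, and CD45.1+ EGFRt bright cKit+ CD11b dim or negative splenocytes were thawed and sorted by color code into lysis buffer. The pre-malignant group (labelled preleukemic) came from mouse #15 alone, killed before leukemia developed, and comprised 3 of its clones. The same clones made up the de novo expanded group at the leukemic endpoint, where 38BC-D was taken from mouse #13, 43BC-D from mouse #14 and 33BC-D from mouse #17. Clone 34BC-D of these 3 endpoint mice formed the stably expanded group. Each group thus had 3 libraries. The 3 pre-malignant libraries share 1 animal, so that stage and animal cannot be told apart, and the stably expanded libraries are 1 clone. No pre-malignant library came from clone 34BC-D, so between the stably expanded and pre-malignant groups clone and stage cannot be told apart either.

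The table columns name the group of a library but not its clone or mouse, and libraries are therefore numbered 1 to 3 within a group as names only. Between 10379739 and 15551196 reads per library were counted on genes, and transcripts of the sort genes *Kit*, *Itgam* and *Ptprc* and of the vector genes *Hoxa9* and *Meis1* were each above 0 in 9 of 9, which does not measure the sorted surface proteins. Levels are given as CPM, scaled to all reads on genes in a library, with the SD over the 3 libraries of a group. Each comparison used its 6 libraries and the genes whose normalized counts averaged 10 or more in them. Two-sided limma tests were made on log2(normalized count + 1) and adjusted over all these genes (Benjamini-Hochberg), and the limits for a call were an adjusted p of 0.05 and a change of 2-fold. Log2 fold changes refer to this scale. The p-values measure the spread between these libraries, and an exact permutation test of 3 libraries against 3 could not go below a two-sided p of 0.1. Since RNA was measured in bulk, fewer cells of a type and less RNA per cell cannot be told apart.

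RefSeq promoter windows (GRCm38.p6) were found for 8 of the 10 genes (*Btg2*, *Ier5*, *Klf4*, *Klf2*, *Egr2*, *Klf6*, *Nr4a1* and *Ier3*). Sequence before the start site is shown for the 2 genes that passed the test in the stably expanded clone, *Klf4* and *Klf6*, for *Btg2*, the 1 gene of the 8 with a full CRE, and for *Nr4a1*, whose level varied most within the de novo expanded group. Capitals mark every match, on either strand, to the GC box GGGCGG, the EGR site GCGNGGGCG, the CRE TGACGTCA or its half-site TGACG, overlapping matches run together, and bases within annotated exons were left out.
Klf4 (chr4:55532476-55532725, minus strand): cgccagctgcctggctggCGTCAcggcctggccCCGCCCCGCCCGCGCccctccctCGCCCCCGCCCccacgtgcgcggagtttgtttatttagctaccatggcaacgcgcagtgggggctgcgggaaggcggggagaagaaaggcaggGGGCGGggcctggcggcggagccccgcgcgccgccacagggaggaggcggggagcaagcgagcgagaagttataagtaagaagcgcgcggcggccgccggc
Klf6 (chr13:5861239-5861481, plus strand): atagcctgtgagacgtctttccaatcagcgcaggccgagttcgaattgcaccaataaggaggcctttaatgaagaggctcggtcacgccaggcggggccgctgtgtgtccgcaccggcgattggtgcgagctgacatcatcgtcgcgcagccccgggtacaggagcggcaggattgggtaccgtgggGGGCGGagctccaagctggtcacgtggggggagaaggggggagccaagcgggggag
Btg2 (chr1:134079156-134079405, minus strand): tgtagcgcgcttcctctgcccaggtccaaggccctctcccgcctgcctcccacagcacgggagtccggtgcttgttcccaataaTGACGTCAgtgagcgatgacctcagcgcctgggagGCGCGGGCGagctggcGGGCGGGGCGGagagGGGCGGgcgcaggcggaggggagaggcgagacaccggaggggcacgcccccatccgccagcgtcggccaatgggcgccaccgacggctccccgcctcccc
Nr4a1 (chr15:101266596-101266845, plus strand, before a start site within the annotated gene): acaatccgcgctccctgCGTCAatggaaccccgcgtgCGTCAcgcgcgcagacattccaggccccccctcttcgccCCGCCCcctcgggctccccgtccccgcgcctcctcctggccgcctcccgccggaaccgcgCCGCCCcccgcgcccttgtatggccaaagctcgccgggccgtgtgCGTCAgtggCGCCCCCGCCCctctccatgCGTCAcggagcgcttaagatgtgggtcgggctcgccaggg
Over the 250 bases before the start site, a GC box was present in 8 of the 8 genes and in 32.7% of all 32851 windows. An EGR site stood in 4 of the 8 (*Klf2*, *Klf4*, *Nr4a1* and *Btg2*) and in 4.70% of all windows. The CRE half-site, which the full CRE contains on both strands, stood in 4 (*Klf2*, *Klf4*, *Nr4a1* and *Btg2*) and in 17.8% of windows, and the full CRE in 1 (*Btg2*) and in 1.55%. Neither the CArG box of SRF nor TATAAA had a match in the 8 windows, against 1.47% and 12.4% of all windows. As a CArG match is this rare, 0 in 8 windows does not set these genes apart from others. *Egr1* and *Ier2* had no window, and sites farther from the start were not searched. The 8 windows held between 54.4% and 74.4% G and C, and the median of all windows was 52.4%, so that matches to GC-rich letters are partly set by base composition.

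The 10 genes differed widely in level. Per kilobase of summed exons, *Klf2* and *Ier2* were highest in the pre-malignant libraries, at 136 ± 17.2 and 135 ± 13.0 CPM per kb (SD, n = 3), followed by *Klf6* at 40.0 ± 1.10 CPM per kb. *Btg2*, *Klf4* and *Egr1* lay between 14.9 and 18.4 CPM per kb, *Ier5* and *Ier3* at 9.09 and 7.05 CPM per kb, and *Nr4a1* at 1.94 CPM per kb. *Klf2* and *Ier2* differed by less than their SD, as did *Klf4* and *Egr1*. *Egr2* was at the limit of detection, with 0, 0 and 1 read in the pre-malignant, 0, 1 and 0 in the de novo expanded and 0, 3 and 0 in the stably expanded libraries. As a 0 is compatible with as many as 3 reads, no level of *Egr2* could be told from 0, and it was not tested. Summed over the 10 genes, the level was 901, 785 and 838 CPM in pre-malignant libraries 1 to 3, 572, 659 and 362 CPM in the de novo expanded and 288, 588 and 541 CPM in the stably expanded libraries. The pre-malignant libraries did not overlap with those of either leukemic group in this sum.

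**Figure D1:**
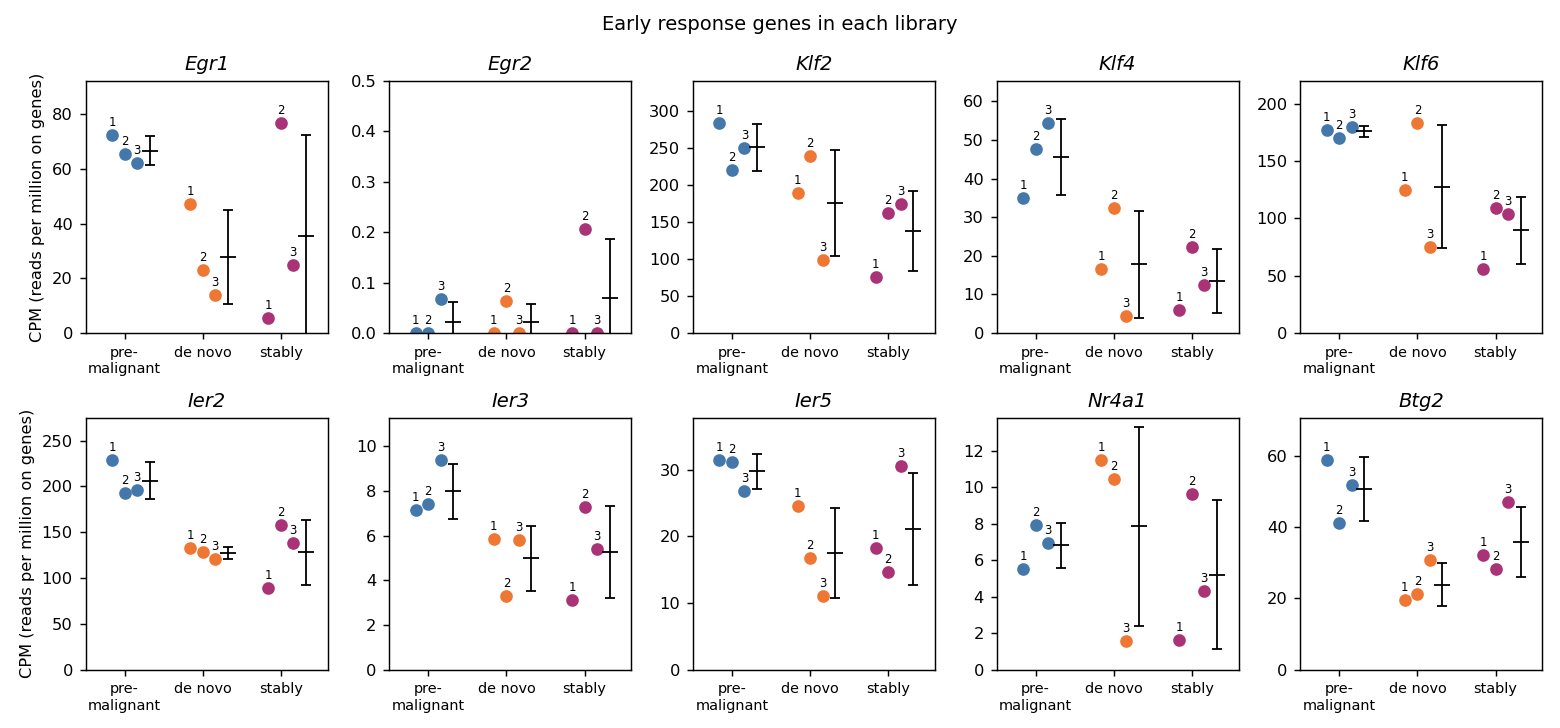
Each panel plots 1 gene in CPM (linear axis from 0) in the 9 libraries, with points numbered by library within the group and the mean with SD beside them. The pre-malignant points lie close together, and in most panels the leukemic groups lie lower and wider, with stably expanded library 2 at 76.7 CPM for *Egr1* against 5.35 in library 1.

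The KLF genes held the only members that passed both limits in the stably expanded clone. *Klf4*, on chromosome 4 from 55527143 to 55532466, encodes a factor that restrains proliferation and promotes monocytic differentiation. It was measured at 35.0, 47.6 and 54.4 CPM in the pre-malignant, 16.5, 32.3 and 4.51 CPM in the de novo expanded and 5.87, 22.2 and 12.3 CPM in the stably expanded libraries. All 6 leukemic libraries lay below all 3 pre-malignant libraries, and both leukemic groups overlapped. In the stably expanded clone *Klf4* had a log2 fold change of -1.93 from the pre-malignant group (standard error 0.37, 3.80-fold lower, limma adjusted p = 0.0136). The de novo expanded clones had a log2 fold change of -1.72 (standard error 0.63) that did not pass (limma adjusted p = 0.414).

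*Klf6*, on chromosome 13 from 5861482 to 5870394, encodes a widely expressed factor of the same family. Its pre-malignant values were among the tightest of all members, 177, 170 and 179 CPM. Stably expanded libraries had 56.1, 109 and 104 CPM and lay below all of these, a log2 fold change of -1.03 (standard error 0.20, 2.04-fold lower, limma adjusted p = 0.0148). De novo expanded libraries had 125, 183 and 75.4 CPM and spanned the pre-malignant range, with a log2 fold change of -0.54 (limma adjusted p = 0.503). The *Klf6* fold change stood close to the 2-fold limit and shrank to -0.73 without stably expanded library 1.

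*Klf2*, on chromosome 8 from 72319033 to 72321656, encodes a quiescence factor of lymphocytes and endothelium. It was measured at 284, 221 and 250 CPM in the pre-malignant, 190, 239 and 98.6 CPM in the de novo expanded and 76.2, 162 and 175 CPM in the stably expanded libraries. The stably expanded libraries lay below the pre-malignant ones, while de novo expanded library 2 lay within their range. In the stably expanded clone the log2 fold change of -0.95 (standard error 0.25) had a limma adjusted p of 0.0457 but stayed under 2-fold, and in the de novo expanded clones it was -0.59 (limma adjusted p = 0.497).

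Among the IER genes, *Ier2* gave the most even difference. *Ier2* (chromosome 8 from 84661331 to 84662854) was measured at 229, 193 and 196 CPM in the pre-malignant, 133, 129 and 121 CPM in the de novo expanded and 89.1, 158 and 138 CPM in the stably expanded libraries. All 6 leukemic libraries lay below the pre-malignant ones. The log2 fold change was -0.68 (standard error 0.10, limma adjusted p = 0.279) in the de novo expanded clones, whose unadjusted p of 0.000254 was the smallest among the members. It was -0.72 (standard error 0.18, limma adjusted p = 0.0342) in the stably expanded clone, again under 2-fold.

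*Ier5* (chromosome 1 from 155096361 to 155099636), which encodes a cofactor of heat shock factor HSF1, had 31.5, 31.1 and 26.8 CPM in the pre-malignant, 24.6, 16.7 and 11.1 CPM in the de novo expanded and 18.2, 14.6 and 30.5 CPM in the stably expanded libraries. The de novo expanded libraries lay below the pre-malignant ones and stably expanded library 3 lay among them. Its log2 fold changes were -0.82 and -0.56 (limma adjusted p = 0.400 and 0.180). *Ier3* (chromosome 17 from 35821684 to 35822923), which encodes a regulator of apoptosis, was low, with 7.13, 7.39 and 9.39 CPM in the pre-malignant, 5.84, 3.28 and 5.81 CPM in the de novo expanded and 3.13, 7.26 and 5.40 CPM in the stably expanded libraries. Stably expanded library 2 exceeded pre-malignant library 1 in CPM but not in normalized counts (96.5 against 97.8), and the log2 fold changes of -0.69 and -0.66 did not pass (limma adjusted p = 0.449 and 0.224).

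*Egr1*, on chromosome 18, showed the widest spread within the stably expanded clone. Its level was 72.5, 65.6 and 62.0 CPM in the pre-malignant, 47.0, 23.1 and 13.7 CPM in the de novo expanded and 5.35, 76.7 and 24.8 CPM in the stably expanded libraries. All de novo expanded libraries lay below the pre-malignant ones, whereas stably expanded library 2 lay above them and library 1 was 14.3-fold below library 2. The log2 fold change was -1.42 in the de novo expanded clones (standard error 0.39, limma adjusted p = 0.372) and -1.61 in the stably expanded clone (standard error 0.68, limma adjusted p = 0.167). Without stably expanded library 2 it was -2.50 with an adjusted p of 0.0135, and without de novo expanded library 3 it was -1.01 with an adjusted p of 0.0437. With each library left out in turn, it ranged from -2.50 to -0.61 in the stably expanded clone (limma adjusted p from 0.0135 to 0.347). In the de novo expanded clones the range was -1.88 to -1.01 (limma adjusted p from 0.0437 to 0.793).

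*Btg2*, on chromosome 1 from 134075170 to 134079120, had the largest difference between stably and de novo expanded clones on the log2 scale of the limma test. It was measured at 58.9, 41.0 and 51.8 CPM in the pre-malignant, 19.6, 21.3 and 30.7 CPM in the de novo expanded and 32.1, 28.3 and 47.0 CPM in the stably expanded libraries. The de novo expanded libraries lay below the pre-malignant ones with a log2 fold change of -1.08 (standard error 0.22, limma adjusted p = 0.330), which passed both limits without de novo expanded library 3 (-1.28, adjusted p = 0.00430). With each library left out in turn, the limma adjusted p of this comparison ranged from 0.00430 to 0.793. The stably expanded clone overlapped with both other groups, with a log2 fold change of -0.51 from the pre-malignant group (limma adjusted p = 0.145) and of 0.58 from the de novo expanded group (standard error 0.26, limma adjusted p = 0.891).

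*Nr4a1*, on chromosome 15 from 101254269 to 101274795, did not follow the others. It had 5.54, 7.94 and 6.96 CPM in the pre-malignant, 11.5, 10.5 and 1.57 CPM in the de novo expanded and 1.63, 9.66 and 4.34 CPM in the stably expanded libraries. De novo expanded libraries 1 and 2 and stably expanded library 2 lay above all pre-malignant libraries, and de novo expanded library 3 and stably expanded library 1 far below. The reads behind these low values were 24 (95% Poisson interval 15.4 to 35.7) and 25 (16.2 to 36.9), against 138 (116 to 163) and 163 (139 to 190) in de novo expanded libraries 1 and 2, so that counting error alone did not cover the gap. These intervals cover counting error only. The log2 fold change of -0.20 in the de novo expanded clones (95% CI -1.85 to 1.44) became 0.70 without de novo expanded library 3, and that of the stably expanded clone was -0.70 (95% CI -1.82 to 0.42).

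Both comparisons with the pre-malignant group share its 3 libraries, so their values are set side by side and are not independent. Between de novo expanded and pre-malignant clones, 9 of the 9 tested members had a lower mean of log2(normalized count + 1), as did 49.0% of the 14195 genes tested, and the members' median log2 fold change was -0.69 against 0.01 for all genes. Lower and higher means refer to this log2 scale throughout, and for *Nr4a1* the mean CPM was higher in the de novo expanded clones, 7.85 ± 5.47 against 6.81 ± 1.21 (SD, n = 3). No member was called (0 called lower among all genes, 0%). An unadjusted p under 0.05 with a lower mean was found in 5 members (*Btg2*, *Egr1*, *Ier2*, *Klf4* and *Ier5*) and in 5.26% of genes. In 6 members, these 5 and *Ier3*, the groups did not overlap, as in 8.50% of genes in the lower direction. By DESeq2, which called 42 genes, *Btg2* passed both limits (adjusted p = 0.0156) and *Ier2* had an adjusted p of 0.0173 below 2-fold. Without de novo expanded library 3, *Btg2* and *Egr1* were called, among 215 genes.

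Between stably expanded and pre-malignant clones, 9 of 9 tested members again had a lower mean, as did 49.5% of the 13968 genes tested, with a median log2 fold change of -0.72 against 0.00 for all genes. The 2 members called lower, *Klf4* and *Klf6*, compare with 1.55% of genes called lower. Without the fold limit 4 members passed lower, with *Ier2* and *Klf2* added, against 3.61% of genes. Unadjusted p-values were under 0.05 in 7 members and, in the lower direction, in 12.3% of genes, and groups did not overlap in 5 members and in 14.6% of genes. No call was made by a single fit of all 9 libraries, where the limma adjusted p was 0.162 for *Klf4* and 0.135 for *Klf6*. Leaving out single pre-malignant libraries also moved these calls, with *Klf4* lost without library 2 or 3 (adjusted p = 0.0616 and 0.0505) and *Klf6* without library 1 or 2 (adjusted p = 0.0513 and 0.0567), and *Klf6* fell short of 2-fold by edgeR (-0.98) and DESeq2 (-0.97).

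Between the leukemic groups, no difference in a member was detectable. Log2 fold changes of stably over de novo expanded ranged from -0.48 (*Nr4a1*) to 0.58 (*Btg2*), 0 of 9 members were called, 0 had an unadjusted p under 0.05 and all 9 overlapped. Of all 13758 genes in this comparison, 0.00727% passed both limits, 4.83% had an unadjusted p under 0.05 and 9.61% did not overlap, in either direction. The 95% intervals were wide. They ran from -2.27 to 1.93 for *Egr1*, from -1.92 to 1.54 for *Klf4* and from -0.49 to 0.44 for *Ier2*, and a 2-fold difference lay outside the interval in *Ier2* and *Ier3* and inside it in the other 7. The different outcomes of *Klf4*, *Klf6*, *Ier2* and *Klf2* against the pre-malignant group are therefore not shown to differ between the leukemic groups.

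**Figure D2:**
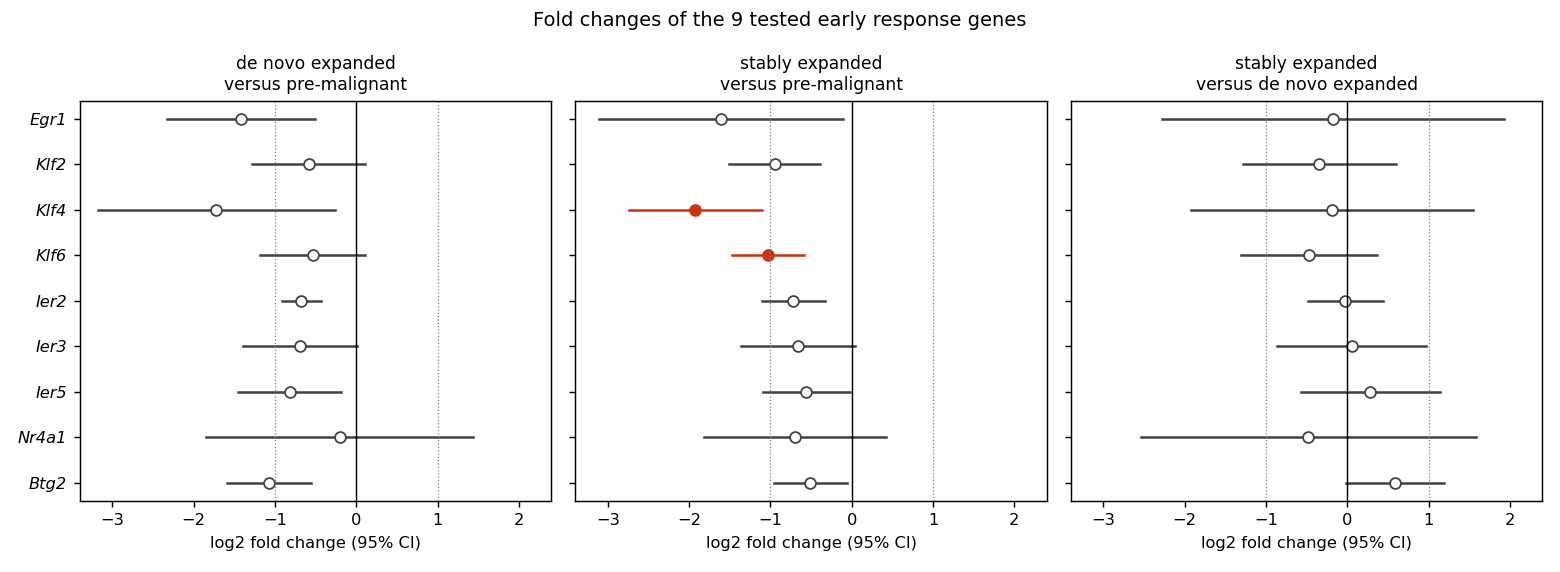
Log2 fold changes of the 9 tested genes (points) with 95% confidence intervals (bars) are shown for the 3 comparisons, with dotted lines at 2-fold and filled red points for genes that passed both limits. All points of the first 2 panels lie below 0, *Klf4* (-1.93) and *Klf6* (-1.03) pass in the second, and all intervals of the third include 0.

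Within the leukemic groups, the members were low together in the same libraries. De novo expanded library 3 had the lowest value of its group in 7 of 9 members (all but *Ier3* and *Btg2*), while it was lowest in 40.6% of the 13402 genes tested in all comparisons. Stably expanded library 1 was also lowest in 7 of 9 (all but *Ier5* and *Btg2*) and in 32.4% of genes. Stably expanded library 2 was the highest of its group in 6 of 9 members and in 35.2% of genes. The ratio of the highest to the lowest library ranged from 1.05 to 1.55 in the pre-malignant group, from 1.10 to 7.35 in the de novo expanded group and from 1.66 to 14.3 in the stably expanded group. The pre-malignant group had the smallest ratio in 8 of 9 members, all but *Ier2*, and in 42.8% of all genes. Stably expanded library 1 and de novo expanded library 3 also had the fewest genes with a read in their groups, 21618 and 23537. Stably expanded library 3 and de novo expanded library 2 were close to them, at 22708 and 24037. The members summed to 288 and 362 CPM in the first 2 and to 541 and 659 CPM in the latter 2. In stably expanded library 2 and de novo expanded library 1, 27067 and 27989 genes had a read, against 27896 to 30548 in the pre-malignant libraries. The part of these numbers in the members' levels was not tested. The pre-malignant libraries came from 1 mouse and those of each leukemic group from 3 mice, and spread and number of mice cannot be told apart.

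**Figure D3:**
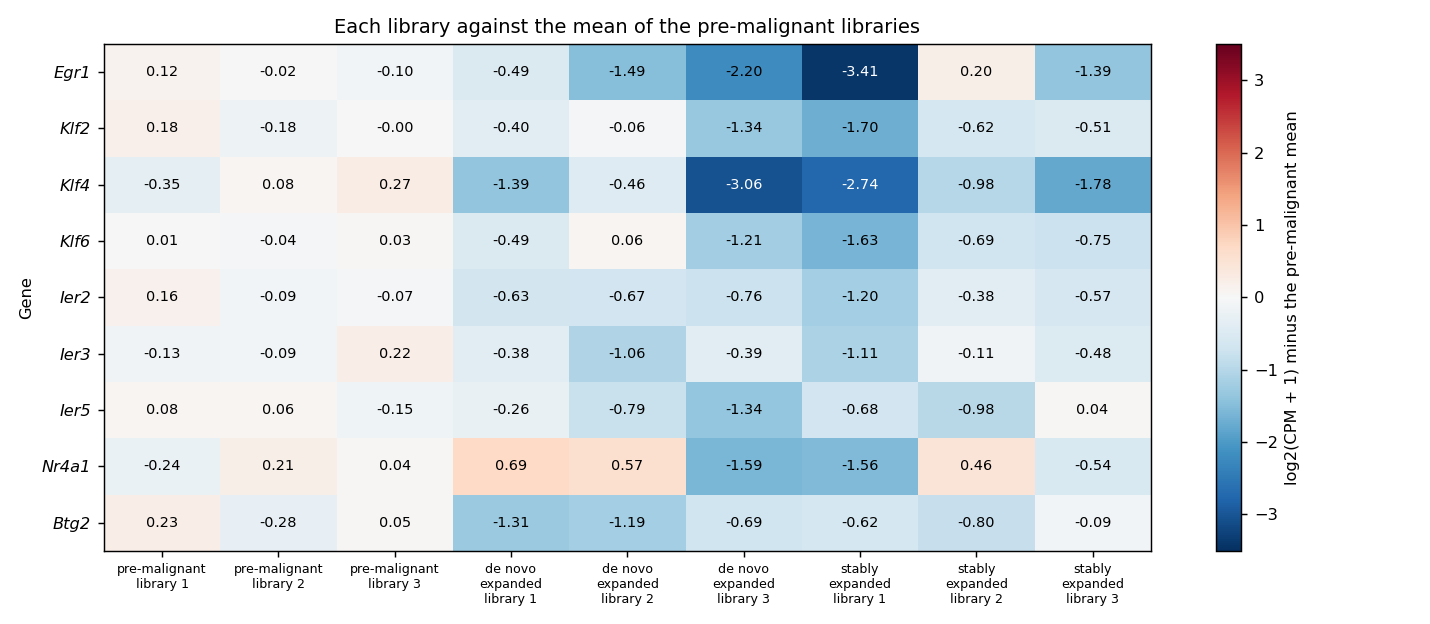
Each cell gives log2(CPM + 1) of a gene in a library minus the mean of the 3 pre-malignant libraries, blue where lower and red where higher. De novo expanded library 3 and stably expanded library 1 form the darkest columns, down to -3.06 for *Klf4* and -3.41 for *Egr1*, whereas *Nr4a1* is at 0.69 in de novo expanded library 1.

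Some of the genes most similar to the members' profile were other early response genes. Among the 13393 other genes tested in all comparisons, the 8 with the highest Pearson r over the 9 libraries with the mean standardized profile of the 9 tested members were *Fos* (0.977), *Atf3* (0.964), *Myo15* (0.963), *Ip6k1* (0.962), *Junb* (0.961), *Pld4* (0.960), *Ccl3* (0.959) and *Zfp36* (0.956). These values are descriptions, since the points share the 3 groups and the libraries. *Fos* and *Junb* encode AP-1 subunits, *Atf3* a stress-induced factor that pairs with them, and *Zfp36* a protein that destabilises mRNA. *Myo15*, *Ip6k1*, *Pld4* and *Ccl3* were not on the list of other early response genes. *Myo15* was low, with group means from 0.94 to 2.72 CPM.

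Of 21 other early response genes, chosen with earlier results of these data known, 20 were tested against the pre-malignant group. In the de novo expanded clones 20 had a lower mean, 12 with an unadjusted p under 0.05 and 0 called, with a median log2 fold change of -0.62. Of all genes in this comparison, 49.0% had a lower mean, and 5.26% had one with an unadjusted p under 0.05. *Zfp36*, *Dusp1* (a MAP kinase phosphatase) and *Junb* had the smallest p, with log2 fold changes of -1.15, -1.14 and -0.89 (limma adjusted p = 0.244, 0.301 and 0.320). In the stably expanded clone 19 of 20 had a lower mean (49.5% of all genes), with a median of -0.99. Called lower were 6 of them, against 1.55% of all genes. These 6 were *Ppp1r15a* (-1.63, limma adjusted p = 0.00284), *Junb* (-1.16), *Zfp36* (-1.21), *Maff* (-1.49), *Fos* (-1.49) and *Atf3* (-2.30), the others with adjusted p-values from 0.00544 to 0.0381. Without stably expanded library 1 the median was -0.67 and 2 were called. Between the leukemic groups 0 of 19 were called, with a median of -0.25, which turned to 0.08 without stably expanded library 1.

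Of 26 other EGR, NAB, KLF, IER, NR4A and BTG/TOB genes, 20 were tested against the pre-malignant group, and 13 had a lower mean in either leukemic group, with medians of -0.22 in the de novo and -0.20 in the stably expanded clones. An unadjusted p under 0.05 with a lower mean was found in 8 and 9 of the 20, and with a higher mean in 0 and 2. Of all genes, 49.0% and 49.5% had a lower mean, and 5.26% and 12.3% had one with an unadjusted p under 0.05. *Nr4a2*, a paralog of *Nr4a1*, was the only relative called, with a log2 fold change of -1.68 in the stably expanded clone (limma adjusted p = 0.0135). In that comparison 1.55% of all genes were called lower. In the de novo expanded clones *Tob1*, *Egr3* and *Btg1* had the smallest p, with log2 fold changes of -1.07, -2.21 and -0.39 (limma adjusted p = 0.301, 0.330 and 0.380). *Egr3*, unlike *Egr2*, was measurable in pre-malignant cells, at 39.0 ± 21.1 normalized counts (SD, n = 3) against 6.94 ± 0.60 in the de novo expanded clones. In the comparison of both leukemic groups 0 of 17 relatives were called (median 0.04), and *Klf5*, *Nr4a2* and *Tob1* had the smallest p, with log2 fold changes of 2.12, -0.85 and 0.28.

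The regulators upstream of these genes had medians near 0. Of 26 tested genes for SRF, its ELK and MRTF partners, CREB and its CRTC cofactors, MEF2 factors and the MAP kinase to RSK and MSK cascade, 12 had a lower mean in the de novo and 14 in the stably expanded clones, with medians of 0.02 and -0.02. A lower mean was found in 49.0% and 49.5% of all genes. Only *Rps6ka2*, which encodes an RSK kinase, was called among the 26, with a log2 fold change of 1.59 in the stably expanded clone (limma adjusted p = 0.00912). In that comparison 168 of 13968 genes were called higher. *Elk3*, *Crtc2* and *Map2k5* had the smallest p in the de novo expanded clones (log2 fold changes 1.05, -0.35 and -0.34, limma adjusted p = 0.399, 0.417 and 0.437). Stably against de novo expanded, 0 of 26 were called, with a median of 0.03 and the smallest p in *Rps6ka1* (0.42), *Rps6ka2* (1.27) and *Elk3* (-0.78). Messenger levels do not measure kinase activity.

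The heat shock genes, another set of rapidly induced transcripts, mostly had a lower mean too, but those with an unadjusted p under 0.05 went both ways. These were 1 higher and 1 lower in the de novo and 2 higher and 2 lower in the stably expanded clones. Of 10 tested, 7 had a lower mean in the de novo and 8 in the stably expanded clones, with medians of -0.16 and -0.25. Of all genes, 49.0% and 49.5% had a lower mean, 5.26% and 12.3% with an unadjusted p under 0.05. *Dnajb4* was the 1 heat shock gene called, with a log2 fold change of -1.06 in the stably expanded clone (limma adjusted p = 0.0452), against 1.55% of all genes called lower. In the de novo expanded clones *Hsp90aa1* (0.66), *Dnaja1* (-0.34) and *Hspa8* (0.35) had the smallest p (limma adjusted p = 0.330, 0.412 and 0.445). Stably against de novo expanded, 5 of 10 were lower and 0 called, with a median of -0.02 and the smallest p in *Dnajb4* (-0.79), *Hspe1* (-0.19) and *Dnaja1* (0.11). By the mean of log2(CPM + 1) minus the pre-malignant mean, stably expanded library 2 was lowest for this list (-0.89). The same library was the highest of its group in 6 members. By summed CPM pre-malignant library 1 was lowest for this list, at 1541 CPM against 1725 CPM in stably expanded library 2. The group mean of this sum was higher in both leukemic groups, at 2179 CPM (de novo) and 2191 CPM (stably expanded) against 1740 CPM (pre-malignant). Most tested genes of the list thus had a lower mean while its summed level was higher.

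**Figure D4:**
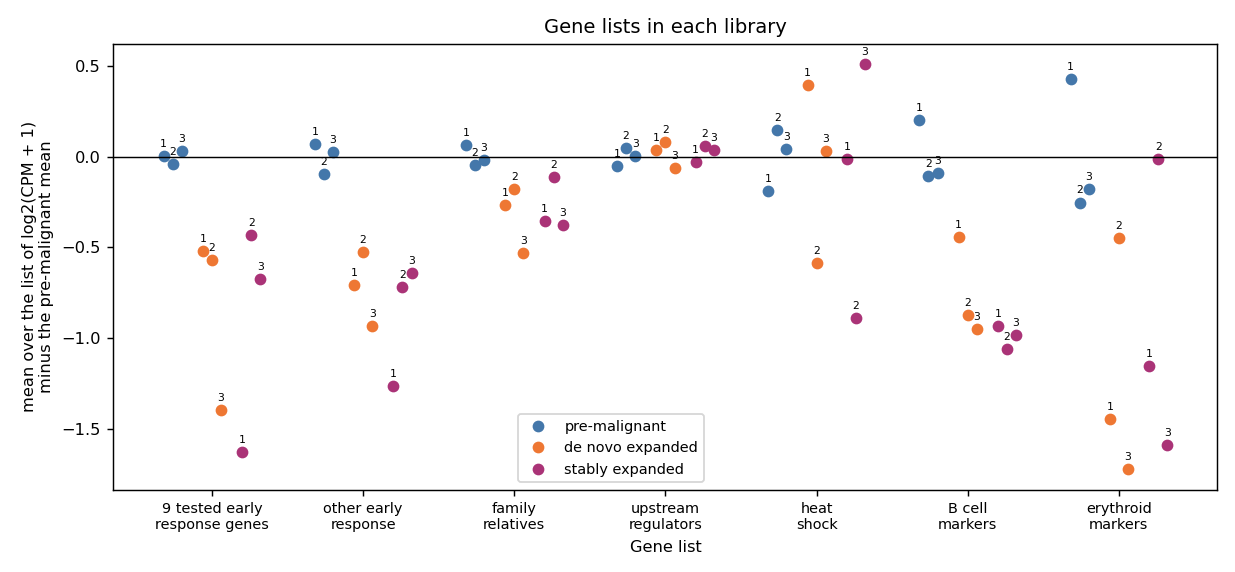
Each point is a library, numbered within its group, and gives the mean over a gene list (genes with at least 10 reads on average) of log2(CPM + 1) minus the pre-malignant mean. The tested members and the other early response genes are low in all 6 leukemic libraries, the members from -0.43 to -1.63, and the upstream regulators stay between -0.06 and 0.08. B cell and erythroid markers are also below 0 in the leukemic libraries. For the erythroid markers, stably expanded library 2 (-0.01) lies above pre-malignant libraries 2 (-0.25) and 3 (-0.18).

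Of 8 genes chosen as known targets of these factors, among them *S1pr1* and *Thbd* for KLF2, 7 were tested. The medians were -0.47 in the de novo and -0.89 in the stably expanded clones. In each, 6 of 7 had a lower mean, as did 49.0% and 49.5% of all genes. Without de novo expanded library 3 the first median was -0.03, and without stably expanded library 1 the second was -0.75. In the stably expanded clone 3 were called lower, against 1.55% of all genes. These were *Csf1r* (-1.71, limma adjusted p = 0.00412), the receptor of the monocyte growth factor M-CSF, *Thbd* (-1.07, adjusted p = 0.0101), which encodes thrombomodulin, and *Irf8* (-1.35, adjusted p = 0.0126), a factor of monocytic and dendritic fate. In the de novo expanded clones 0 were called, and *Cd14*, *Csf1r* and *Irf8* had log2 fold changes of -0.47, -1.69 and -0.92. Summed over the 8 genes, the level was 1055 and 1140 CPM in de novo expanded libraries 1 and 2 and 398 in library 3, against 835 to 1196 CPM in the pre-malignant libraries. *Itgb7* averaged 162 CPM in the de novo and 58.6 CPM in the stably expanded clones, against 52.9 CPM in the pre-malignant libraries. Between the leukemic groups 7 of 7 had a lower mean in the stably expanded clone, 0 called, with a median of -0.41 and log2 fold changes of -0.41 in *Cd14* and -0.56 in *Thbd*. The median of all genes in this comparison was -0.002.

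Markers of other cell types differed by list, and most B cell and erythroid markers had a lower mean in both leukemic groups. Of all genes, 49.0% had a lower mean in the de novo and 49.5% in the stably expanded clones. The 8 B cell markers summed to between 218 and 260 CPM in the pre-malignant, between 75.6 and 207 CPM in the de novo expanded and between 86.2 and 104 CPM in the stably expanded libraries, mostly from *Ighm*. None of the 8 was at 0 in any library, *Pax5* ranging from 2 to 62 reads. In the stably expanded clone 7 of 8 had a lower mean, with a median of -2.04. Called lower were 5 (*Ighm*, *Pax5*, *Ebf1*, *Ms4a1* and *Ighd*), against 1.55% of all genes. *Cd79b* went the other way, with a mean of 14.1 CPM in the stably expanded clone against 7.21 CPM in the pre-malignant libraries. In the de novo expanded clones 8 of 8 had a lower mean, 0 called, with a median of -1.20 and log2 fold changes of -2.03 in *Ms4a1* and -1.99 in *Ebf1*. The 8 erythroid markers summed to between 24.6 and 55.8 CPM in the pre-malignant, between 3.33 and 20.3 CPM in the de novo expanded and between 4.82 and 32.5 CPM in the stably expanded libraries. Of these, 6 of 7 tested had a lower mean in both comparisons, 0 called, with medians of -2.32 and -1.87, led by *Alas2*, and some hemoglobin genes were at 0 in 1 library. The 11 monocyte and macrophage markers, of which *Csf1r* and *Cd14* also stand among the targets, summed to between 1260 and 1661, 1200 and 1773, and 1185 and 1528 CPM, with *Csf1r* the only call (stably expanded clone). The 8 T cell markers stayed between 1.57 and 5.20 CPM and the 5 platelet markers between 1.34 and 3.11 CPM, with *Ppbp* at 0 in 9 of 9 libraries. Only *Lck* and *Itga2b* of these could be tested, and neither was called. Of the sort and design genes 0 were called, with log2 fold changes of 0.61 in *Itgam* and -0.30 in *Kit* in the stably expanded clone (limma adjusted p = 0.0485 and 0.0795). Stably against de novo expanded, 0 markers of these lists were called. *Cd79b* had the smallest p of the B cell markers there, with a log2 fold change of 1.07 (limma adjusted p = 0.891). The part of these markers in the members' levels was not tested.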

How the data were processed

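RNA-Seq of 9 libraries was analysed. Per the labels and the study's methods, libraries of the SMARTer Stranded Total RNA-Seq kit were trimmed (Trim Galore 0.6.4), aligned (STAR 2.6.1d) to GRCm38.p6 and counted on GENCODE genes (featureCounts 1.6.4). The authors deposited 3 tables, 1 per pairwise comparison, whose values are read counts divided by DESeq2 size factors over 6 libraries (normalized counts, a signal without length correction). Their fold changes, p-values and test statistics were not used. At least 99.99% of nonzero values returned whole reads to within 0.05 reads, from which CPM were computed. The summed exon length deposited with each gene gave CPM per kb.

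Tests used limma 3.58.1 in R 4.3.3, tested on simulated data, with edgeR 4.0.16 and DESeq2 1.42.0 on recovered reads, other pseudocounts (0.1 and 5), filters and scalings, 1 fit of all 9 libraries and each library left out as alternatives. Python 3.11.15 drew the figures. All 10 members are named. From each list, called genes are named, or the 3 with the smallest p. Some genes of this rule are not reported here. Members and lists were chosen with earlier results of these data known. *Mrtfa*, *Mrtfb* and *Ccn1* were matched through older symbols.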

Additional observations from a re-analysis of the deposited data

How the results depend on the processing

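Against the pre-malignant group, the members' median log2 fold change stayed below 0 under every alternative. It moved by more than the spread between libraries only without stably expanded library 2, where it was -1.09 for the stably expanded clone (range with a library left out -1.09 to -0.49). The number of members called between de novo expanded and pre-malignant clones was 0, 1 by DESeq2 (*Btg2*) and 0 to 2 with a library left out (2 without de novo expanded library 3). Between stably expanded and pre-malignant clones it was 2, 1 by edgeR and by DESeq2, 0 in 1 fit of all 9 libraries, 4 without the fold limit, and 0 to 4 with a library left out (0 without pre-malignant library 2, 4 without stably expanded library 2, which added *Egr1* and *Klf2*). Across alternatives the adjusted p of *Klf4* ranged from 3.33e-05 to 0.162 and that of *Klf6* from 2.87e-05 to 0.135. *Egr1* also passed without a filter on low values (adjusted p = 0.0346). Over all alternatives that kept every library, by limma, edgeR or DESeq2, its adjusted p ranged from 0.0346 to 0.959.

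In the de novo expanded clones *Nr4a1* turned to 0.20 by edgeR and 0.21 by DESeq2, and ranged from -0.69 to 0.70 with a library left out. Between the leukemic groups 0 members were called under all alternatives, and the median of -0.17 turned to 0.014 by edgeR and 0.048 by DESeq2 and ranged from -0.58 to 0.30 with a library left out. There *Egr1* turned to 0.34 by both edgeR and DESeq2 and *Ier2* to 0.014 by both. With a library left out, log2 fold changes ranged from -0.96 to 0.44 (*Klf4*), -0.22 to 0.37 (*Ier3*), -1.39 to 0.16 (*Nr4a1*), -1.07 to 0.82 (*Egr1*), -0.18 to 0.21 (*Ier2*), -0.71 to 0.030 (*Klf2*) and -0.028 to 0.56 (*Ier5*). The cause of these changes was not tested.

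No paired analysis was possible because no label links a column to a clone or mouse within its group. Depth limits *Egr2*, which had at most 3 reads in a library.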
